A study of Mus musculus with 2 samples.

Results

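Neuroendocrine genes were followed in the pituitary of mouse embryos at E12.5, with and without the protein kinase gene Dyrk2. They were Ptprn, Resp18, Scgn, Gnb3, Asic4 and Ptprn2, 6 of the 55401 genes measured. All 6 were found by symbol. The first 5 were selected on their low FPKM in the knockout library, outside the granin family, and Ptprn2, the paralog of Ptprn, was added for contrast. The genotype contrast of these genes therefore chose them, and their ratios are given as a description, with no test.

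Neuroendocrine cells store peptide hormones in dense-core granules and release them when calcium enters the cell. Ptprn and Ptprn2 encode the paired transmembrane proteins of the granule membrane, which belong to the receptor tyrosine phosphatases by sequence but lack the usual catalytic activity. Resp18 encodes a protein of the secretory pathway first described in endocrine pituitary cells, and the luminal part of the Ptprn protein contains a related domain. Scgn encodes secretagogin, a calcium sensor with EF-hand domains that is abundant in neuroendocrine cells. Gnb3 encodes a beta subunit of heterotrimeric G proteins, best known from cone photoreceptors and ON bipolar cells of the retina. Asic4 encodes a member of the acid-sensing sodium channel family that was cloned from the pituitary gland and is not itself gated by protons.

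RNA was sequenced from 1 wild-type library and 1 library of the Dyrk2-KO genotype (Dyrk2-/- in the series description), both of E12.5 pituitary tissue. The title of the series places the work among questions of primary cilia, cell type and vessel growth. Nothing in the sources used here gives the embryos per library, the kind of deletion or the strain. A single library per genotype allows no test and no check against replicates, and the 95% intervals cover counting error only.

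Levels are FPKM, the fragments of a gene per kilobase of its exons, scaled by the library total. The deposited values correspond to 20045106 fragments in the wild-type and 20115619 in the knockout library. Dyrk2 itself stood at 11.5 and 1.93 FPKM. All 11 listed markers of the pouch epithelium from which the anterior pituitary forms were present, and they summed to 981 FPKM in wild type and 913 FPKM in the knockout. Of these, Pitx1, a homeodomain factor, measured 250 and 227 FPKM, and Epcam, an epithelial adhesion gene, 195 and 193 FPKM. Lhx4, a homeodomain factor of the early pouch, was the 1 gene of this list at least 1.5-fold apart, at 8.61 and 5.52 FPKM. The sex makeup of the samples differed as well: Xist, expressed from the inactive X chromosome, stood at 74.98 and 14.76 FPKM and the Y-linked Ddx3y at 5.83 and 14.95 FPKM. The part of this difference in the results was not tested. In whole tissue, fewer cells of a type and less RNA per cell cannot be told apart.

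The stretches upstream of the start sites are shown for the members that the RefSeq promoter table (build GRCm38.p6) holds, 4 of the 6, so that Ptprn can be read beside its paralog. Each is written 5′ to 3′ on the strand of the gene. Those of Ptprn2, Resp18 and Scgn end at the gene's start. The RefSeq start of Ptprn, which is also that of a GENCODE transcript, lies 294 bases inside the outermost GENCODE start, so the Ptprn stretch is within the annotated gene span. Bases in annotated exons at either end of its 250-base window were left out. Capitals mark a match to any of 7 short motifs.

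Ptprn, chr1:75264214-75264433, minus strand: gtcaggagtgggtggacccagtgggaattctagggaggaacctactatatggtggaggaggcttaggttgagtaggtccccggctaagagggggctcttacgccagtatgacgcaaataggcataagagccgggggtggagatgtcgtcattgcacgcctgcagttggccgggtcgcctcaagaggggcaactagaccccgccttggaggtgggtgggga
Ptprn2, chr12:116485470-116485719, plus strand: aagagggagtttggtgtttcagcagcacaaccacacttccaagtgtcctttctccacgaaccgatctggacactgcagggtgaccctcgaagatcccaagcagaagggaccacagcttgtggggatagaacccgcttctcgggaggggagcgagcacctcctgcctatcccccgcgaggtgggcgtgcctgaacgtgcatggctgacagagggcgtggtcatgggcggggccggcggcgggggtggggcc
Resp18, chr1:75278416-75278665, minus strand: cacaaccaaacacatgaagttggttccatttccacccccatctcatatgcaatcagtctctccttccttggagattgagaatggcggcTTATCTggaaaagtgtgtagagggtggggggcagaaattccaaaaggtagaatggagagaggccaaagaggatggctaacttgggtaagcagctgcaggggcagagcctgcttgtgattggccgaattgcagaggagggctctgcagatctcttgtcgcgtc
Scgn, chr13:23991215-23991464, minus strand: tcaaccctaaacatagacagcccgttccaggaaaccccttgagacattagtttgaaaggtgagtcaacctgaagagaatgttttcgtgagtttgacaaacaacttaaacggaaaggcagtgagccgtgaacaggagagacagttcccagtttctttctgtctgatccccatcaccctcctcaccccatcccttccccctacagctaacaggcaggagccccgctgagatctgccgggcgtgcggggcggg

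The motifs were searched on both strands of the 250 bases before the RefSeq start, beside all 32851 promoter windows of that length. They were the cyclic AMP response element TGACGTCA (held by 1.55% of all windows), the E-box CAGATG (14.4%) and the Pitx-type homeodomain site TAATCC (6.25%). Further motifs were the GATA-type site AGATAA (9.99%), the TATA box as TATAAA (12.4%), and the REST half-sites TTCAGCACC (0.301%) and GGACAG (18.7%). The only match in the 4 member windows was AGATAA on the opposite strand of Resp18, 162 to 157 bases before the start, and it overlaps no other match. A match describes these letters and is not evidence of binding. The windows differed in base composition: GC made up 63.6% of the Ptprn2 window and 59.2% of the Ptprn window, against 51.2% for Resp18, 53.2% for Scgn and a median of 52.4% over all windows. CpG pairs numbered 15 in the Ptprn2 window, 10 in Ptprn, 9 in Scgn and 4 in Resp18, beside a median of 6 over all windows.

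The first 5 genes sat close together, between 4.98 and 8.07 FPKM in wild type and between 0.38 and 1.12 FPKM in the knockout. Each of the 5 was at least 2-fold lower in the knockout library once 0.5 FPKM was added to both values, and so was 1.89% of the 14000 genes that reached 1 FPKM in either library. Since the contrast chose these members, nothing is read from that difference. All 6 genes reached 1 FPKM in wild type, and only Ptprn did in the knockout. The counting interval of the plain ratio lay wholly beyond 2-fold lower for 5 of the 6, against 0.829% of all genes. The values of each gene follow by role, and the plot of levels by library shows them together.

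**Figure D1:**
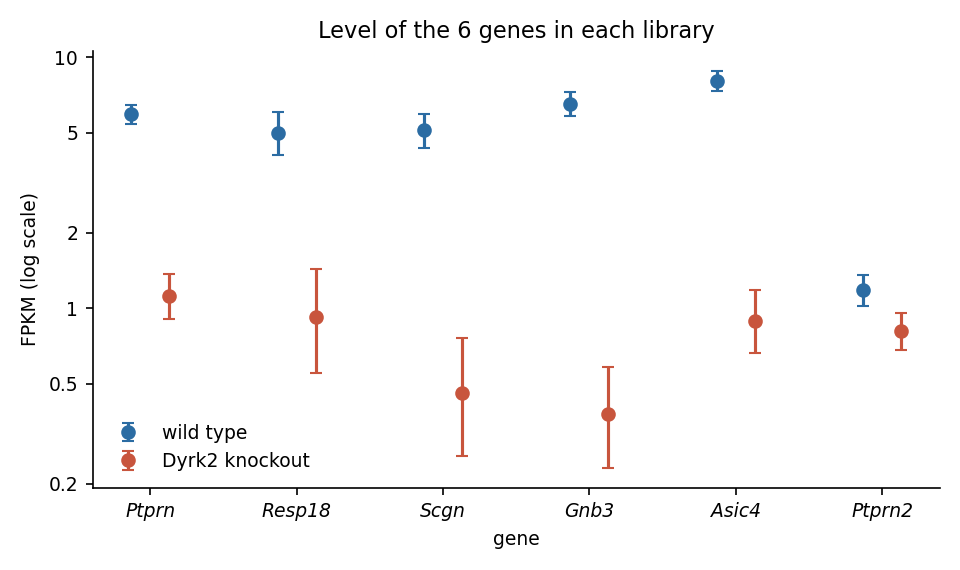
FPKM on a log axis of the 6 genes in the wild-type (blue) and the Dyrk2 knockout (red) library, 1 library each, with bars for the exact 95% Poisson counting interval. The first 5 genes lie between 4.98 and 8.07 FPKM in wild type and at or under 1.12 FPKM in the knockout, whereas Ptprn2 stands at 1.18 and 0.81 FPKM.

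Of the paired granule membrane proteins, Ptprn differed strongly and Ptprn2 less. Ptprn (ENSMUSG00000026204, chr1:75247027-75264502, minus strand) measured 5.94 FPKM (5.43 to 6.48, 506 fragments) in the wild-type library. In the knockout library it measured 1.12 FPKM (0.910 to 1.37, 96 fragments). The knockout level was thus 5.29-fold lower (95% interval 4.24 to 6.65). The interval of each library stayed clear of the other.

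Ptprn2 (ENSMUSG00000056553, chr12:116485720-117276849, plus strand) is spread over 791 kb, the longest span of the members. It measured 1.18 FPKM (1.02 to 1.35, 203 fragments) in wild type and 0.81 FPKM (0.681 to 0.955, 140 fragments) in the knockout. The knockout level was 1.46-fold lower (1.17 to 1.82), and the intervals of the libraries did not overlap here either, although the gap was narrow. Set beside its paralog, Ptprn2 held 68.7% of the wild-type level (55.0% to 85.7%) and Ptprn 18.9% (15.04% to 23.6%). Ptprn made up 83.4% of the summed FPKM of the pair in wild type and 58.0% in the knockout. A pseudogene, Gm6750, lies within the Ptprn2 span on the opposite strand at 3.16 and 3.52 FPKM, and the non-coding Gm10421, also opposite, stood at 0.51 FPKM in both libraries. No source used here says whether the counting used strand.

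Resp18, the luminal relative of Ptprn, had nearly the same ratio as Ptprn. Resp18 (ENSMUSG00000033061, chr1:75272199-75278415, minus strand) measured 4.98 FPKM (4.06 to 6.04, 103 fragments) in wild type. It measured 0.92 FPKM (0.551 to 1.43) in the knockout, from 19 fragments. It was 5.44-fold lower (3.31 to 9.40), an interval that contains the 5.29-fold of Ptprn. With 1032 bases of exon it is the shortest of the 6, and 1 fragment was worth 0.0482 FPKM in the knockout library.

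Scgn, the calcium sensor, was lower still. Scgn (ENSMUSG00000021337, chr13:23953456-23991214, minus strand) measured 5.12 FPKM (4.37 to 5.96, 166 fragments) in wild type. In the knockout it measured 0.46 FPKM (0.258 to 0.760), from 15 fragments, the fewest of the members. The 11.1-fold lower level (6.54 to 20.3) has a wide interval for this reason.

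Gnb3, the G protein subunit, had the lowest ratio of the 6. Gnb3 (ENSMUSG00000023439, chr6:124834240-124840275, minus strand) measured 6.52 FPKM (5.85 to 7.25, 344 fragments) in wild type. It measured 0.38 FPKM (0.231 to 0.583, 20 fragments) in the knockout, which is 5.79% of the wild-type level (3.49% to 9.09%). Of the 14000 genes compared, 7 had a lower log2 ratio.

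Asic4, the channel gene, had the highest wild-type level of the members. Asic4 (ENSMUSG00000033007, chr1:75450436-75474343, plus strand) measured 8.07 FPKM (7.33 to 8.86, 441 fragments) in wild type. It measured 0.89 FPKM (0.661 to 1.18, 49 fragments) in the knockout, a 9.03-fold lower level (6.71 to 12.4). Its knockout level lay 7.18 FPKM under wild type, the largest difference in level among the 6, ahead of the 6.14 FPKM of Gnb3. Annotated transcripts on the opposite strand overlap Ptprn, Resp18, Scgn and Asic4. The 3 that overlap Ptprn, Resp18 and Scgn were listed at 0 in both libraries, and the one at Asic4 stood at 0.07 FPKM in wild type and was listed at 0 in the knockout.

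The order of the members differed between the libraries. In wild type it ran Asic4, Gnb3, Ptprn, Scgn, Resp18 and Ptprn2. The counting intervals of Asic4 and Gnb3 did not overlap, those of the next neighbours down to Resp18 did, and Ptprn2 lay far under the rest. In the knockout library it ran Ptprn, Resp18, Asic4, Ptprn2, Scgn and Gnb3, and every neighbouring pair had overlapping intervals. Ptprn2, the lowest in wild type, was above Gnb3 in the knockout library without overlap of their intervals. Relative to all 14000 genes, the members other than Ptprn2 had wild-type levels above 36.7% to 52.1% of genes, near the median of 7.56 FPKM. In the knockout library they were above 0.807% to 6.61% of genes, where the median was 7.38 FPKM. They were chosen for low knockout values, and all but Ptprn passed the filter through wild type alone. The low rank in the knockout library follows from that choice, and nothing is read from it. The plot of all genes shows the 5 as a small cloud away from the diagonal.

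**Figure D2:**
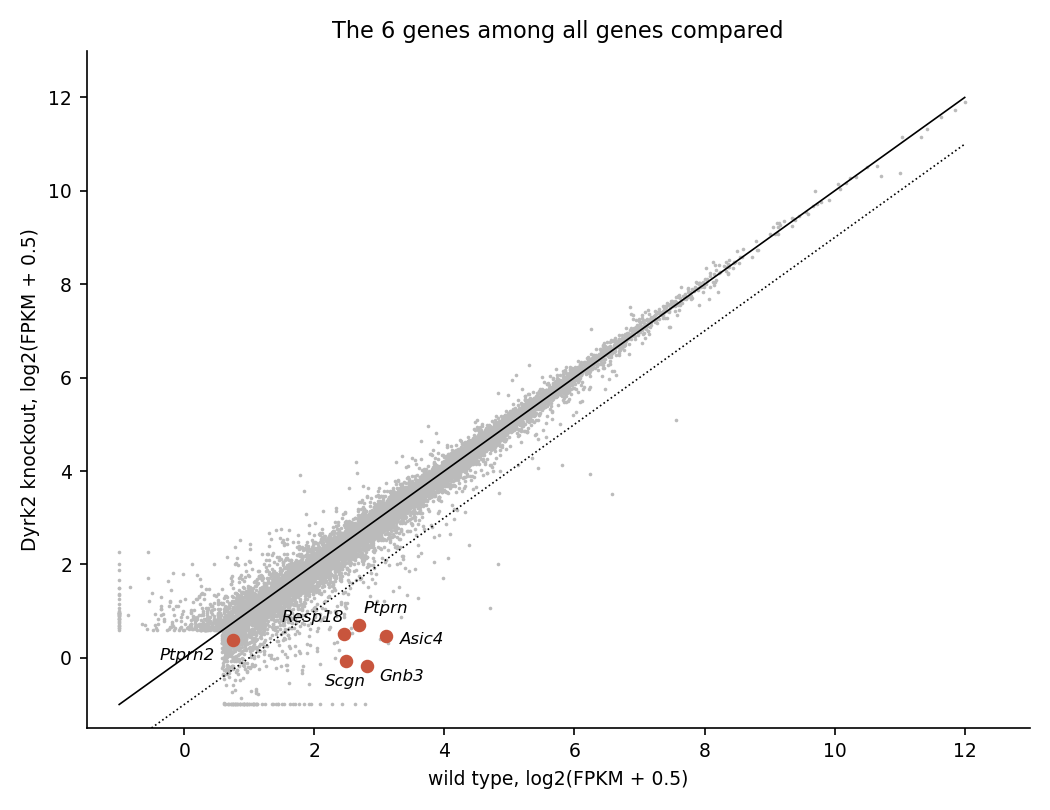
Each grey point is 1 of the 14000 genes that reached 1 FPKM in either library, placed by log2(FPKM + 0.5) in the wild-type library (horizontal) and the Dyrk2 knockout library (vertical); red points are the 6 genes, the solid line marks equal levels and the dotted line a knockout level 2-fold lower. Ptprn, Resp18, Scgn, Gnb3 and Asic4 lie below the dotted line, with log2 ratios from -3.00 to -1.95, and Ptprn2 lies above it at -0.36.

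By position, 3 of the members are neighbours. Ptprn, Resp18 and Asic4 lie within 227 kb of chromosome 1, with 7.70 kb between Ptprn and Resp18 and 172 kb from Resp18 to Asic4. Dyrk2 is on another chromosome, and so are Scgn, Gnb3 and Ptprn2. The stretch holds 12 measured genes, of which 6 passed 1 FPKM. The 3 that are not members, all in the interval between Resp18 and Asic4, had log2 ratios from -0.37 to 0.01. They were Dnpep, an aminopeptidase gene, at 18.65 and 18.79 FPKM, Speg, a muscle kinase gene, at 6.50 and 5.96 FPKM, and Gmppa, of the mannose pathway, at 15.93 and 12.23 FPKM. Gmppa was 1.30-fold lower (1.17 to 1.45). Along the stretch Ptprn and Resp18 come first, then these 3 genes, then Asic4.

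The wider surroundings were read in the same way. Within 250 kb of Ptprn, 17 genes other than members passed 1 FPKM, with log2 ratios from -0.60 to 0.17 and a median of -0.15. Of these, 14 had ratios below 0 and 3 above. None was 2-fold lower, and the lowest was Inha, the inhibin alpha subunit, at 9.61 and 6.17 FPKM. The median over all 14000 genes was -0.02. Around Gnb3, 23 genes had a median of -0.13. The 14 of them within 100 kb had a median of -0.28, with 9 ratios below 0 and 5 above. With 0.5 FPKM added, 3 of these 14 were at least 1.5-fold lower, against 4.56% of all genes. Among the 14 within 100 kb the widest ratios were those of Gpr162, an orphan receptor gene (6.23 and 3.55 FPKM), Lrrc23 (1.58 and 0.83 FPKM), P3h3, a collagen prolyl hydroxylase gene (20.79 and 13.45 FPKM), and Eno2, the neuronal enolase (1.75 and 1.06 FPKM). The nearest of these on either side of Gnb3 were P3h3 and Cdca3, a cell division gene at 29.09 and 31.14 FPKM. Around Scgn, 5 genes passed within 250 kb, with log2 ratios from -0.70 to 0.30, and around Ptprn2 6 did, from -0.18 to 0.14.

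**Figure D3:**
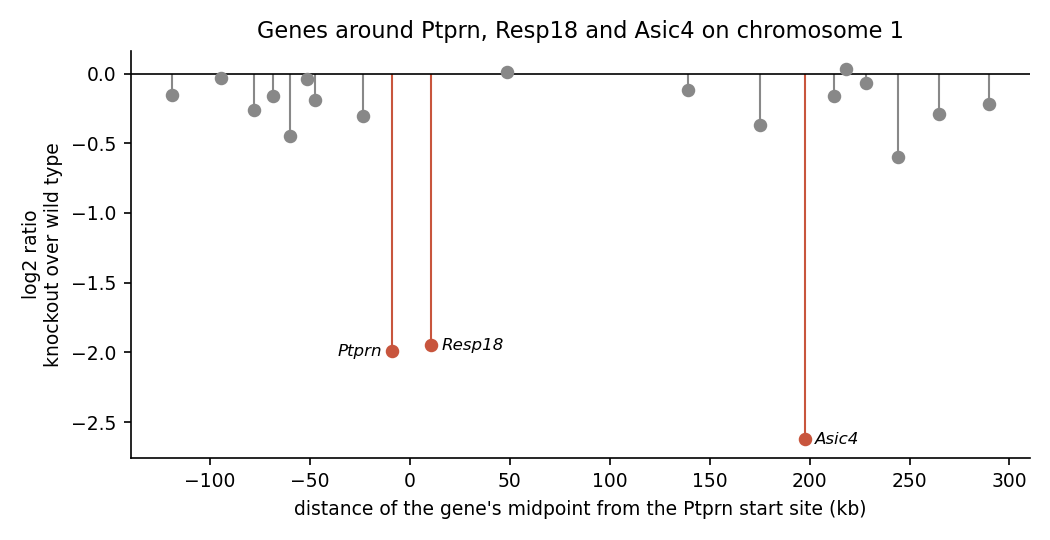
Log2 ratio of knockout over wild type (0.5 FPKM added) of the genes of at least 1 FPKM around Ptprn, Resp18 and Asic4, against the distance in kb of each gene's midpoint from the Ptprn start site. The 3 members (red) reach -1.99, -1.95 and -2.62, and the genes between them (grey) stay between -0.37 and 0.01.

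Each member was then set beside the rest of its gene family, from lists written with earlier results of these data known. With 0.5 FPKM added, 4.56% of all genes were lower by 1.5-fold or more and 2.06% higher by as much. Every list count by fold below is with 0.5 FPKM added, which draws low genes toward level, and genes past 1.5-fold by the plain ratio alone are named beside it. The plot of families shows Ptprn, Scgn, Gnb3 and Asic4, chosen for low knockout values, apart from the other points of their lists. Ptprn2, added for contrast, lies within the range of its list.

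Of 22 genes listed as receptor tyrosine phosphatases, an associated protein gene included, 15 passed 1 FPKM. Ptprn alone was at least 1.5-fold lower and none was that much higher. By the plain ratio Ptprb, an endothelial phosphatase gene at 2.22 and 1.41 FPKM, was lower by as much too. The 13 that are not members ran from -0.51 to 0.31, with a median of 0.05. The most expressed were Ptprf, a receptor of epithelial cells, at 118 and 128 FPKM, Ptpru at 29.1 and 23.0 FPKM, and Ptprs at 29.0 and 27.8 FPKM. Ptprn2, at -0.36, lay within the range of these relatives but toward its lower end, with Ptprb alone below it. Of all genes compared, 9.88% had a lower log2 ratio than Ptprn2.

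Among 24 EF-hand genes 11 passed, and Scgn had the lowest ratio. Of the other 10, Kcnip3, a calcium sensor of potassium channels and of transcription, was the 1 gene at least 1.5-fold lower, at 2.45 and 1.4 FPKM (1.75-fold, 1.36 to 2.26). The most expressed genes named from this list, the calmodulin genes Calm2 and Calm3, measured 204.65 and 214 and 186 and 184 FPKM. Scgn made up 81.0% of the summed FPKM of Scgn and the calcium buffers Calb1 and Calb2 in wild type and 23.1% in the knockout.

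Among 17 beta and gamma subunits of G proteins 14 passed, and the 13 other than Gnb3 all lay within 1.5-fold with 0.5 FPKM added. By the plain ratio the gamma subunit genes Gng8, at 1.15 and 0.69 FPKM, and Gngt2, at 0.69 and 1.24 FPKM, lay beyond it in opposite directions. Gnb1 measured 148 and 153 FPKM, Gnb2 104 and 95.3 FPKM, and the gamma subunit gene Gng5 29.97 and 30.6 FPKM. Gnb3 was a minor beta subunit in both libraries, at 2.40% of the summed FPKM of the 5 beta genes in wild type and 0.145% in the knockout. The summed level of the other 4 was 265 and 261 FPKM.

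Of the 8 acid-sensing and epithelial sodium channel genes, only Asic4 and Scnn1a passed 1 FPKM. Scnn1a, an epithelial channel subunit, measured 1.11 and 1.41 FPKM. Asic4 took 88.4% of the summed FPKM of the 5 acid-sensing channel genes in wild type and 56.0% in the knockout, and the other 4 together measured 1.06 and 0.70 FPKM.

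**Figure D4:**
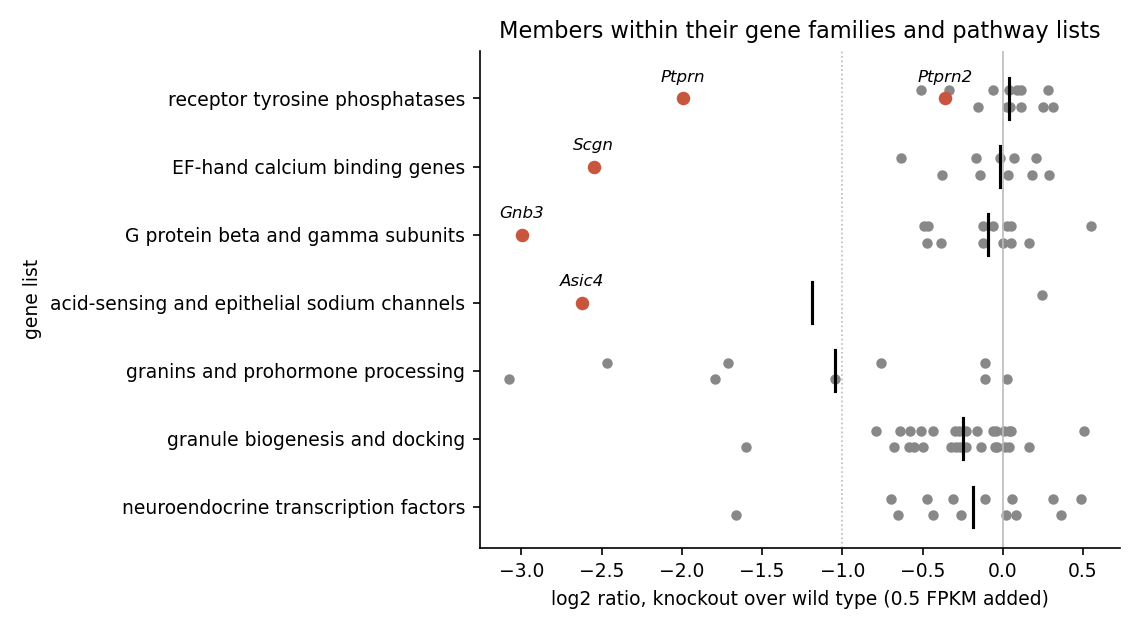
Log2 ratio of knockout over wild type (0.5 FPKM added) of the genes of at least 1 FPKM in 7 lists, 1 row per list; red points are members, grey points other genes, black bars list medians, and the dotted line marks 2-fold lower. Ptprn, Scgn, Gnb3 and Asic4 lie at -1.99 to -3.00, left of the other points of their families. Ptprn2 sits within the range of its family, toward the low end. Resp18 is in none of these lists.

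Among cargo and processing genes of dense-core granules that passed 1 FPKM, the granins and Pcsk1 were lower in the knockout library. The others were near level. Under the filter, the granin gene Vgf measured 0.07 and 0.15 FPKM and Pcsk2 0.23 and 0.3 FPKM. Of 11 granin and prohormone processing genes 9 passed, 6 of them lower by 1.5-fold or more and none higher by as much, with a median log2 ratio of -1.04. Chga and Scg2, the most abundant granins, measured 94.9 and 10.8 FPKM and 189 and 33.7 FPKM. Chgb, another granin, was 4.04-fold lower (3.30 to 4.98), from 8.79 to 2.18 FPKM. The convertase gene Pcsk1 was 6.13-fold lower (4.46 to 8.60). The carboxypeptidase gene Cpe, at 53.5 and 49.5 FPKM, Pcsk1n, the gene of a convertase inhibitor, at 14.24 and 13.13 FPKM, and Pam, the amidating enzyme, at 5.92 and 6.05 FPKM, were near level.

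Genes for granule biogenesis, docking and fusion were closer to level. Of 37 listed, 30 passed, 4 were at least 1.5-fold lower, none was that much higher, and the median was -0.25, with 23 ratios below 0 and 7 above. By the plain ratio 8 were at least 1.5-fold lower, Syt4, Sytl4, Stx1a and Pclo being the additional ones, and Syt1 was higher by as much, at 1.52 and 2.37 FPKM. Baiap3, a Munc13-related gene of granule trafficking, measured 5.01 and 1.32 FPKM, 3.79-fold lower (3.13 to 4.61). The vesicle GTPase genes Rab3b, Rab27a and Rab27b measured 8.82 and 4.88, 5.30 and 3.13 and 1.79 and 0.97 FPKM. Vamp2, a vesicle SNARE, measured 19.07 and 13.99 FPKM, Syt5, a synaptotagmin, 11.7 and 9.29 FPKM and Rph3al, a Rab effector, 12.99 and 10.49 FPKM.

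Transcription factors of neuroendocrine cells parted. Of 31 listed 14 passed, 3 were at least 1.5-fold lower, none was that much higher, and the median was -0.18. By the plain ratio St18, at 1.08 and 0.64 FPKM, was lower by as much as well, and Prox1, at 1.36 and 2.11 FPKM, higher. Neurod1, a factor of early corticotroph cells, measured 3.33 and 0.71 FPKM, 4.68-fold lower (3.30 to 6.80). Insm1, a zinc finger factor of neuroendocrine differentiation, measured 24.75 and 15.1 FPKM, and Gata2 26 and 16.4 FPKM. Rcor2, a corepressor gene, was level at 32.0 and 32.5 FPKM. Rest, the repressor of neuronal and neuroendocrine genes, measured 8.86 and 9.40 FPKM. It is named outside the rule, with its values already seen.

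Markers of cells that also carry such genes were read beside the members. Of 13 markers of pituitary hormone cells 5 passed, and their list summed to 111 FPKM in wild type and 55.6 FPKM in the knockout. The highest of them in both libraries was Cga, the shared glycoprotein hormone subunit, at 55.4 and 17.0 FPKM. Pomc, the adrenocorticotropin precursor, was near level at 8.67 and 8.71 FPKM. Isl1, which also passed, was 1.37-fold lower (1.26 to 1.49). Under the filter, the hormone subunit gene Fshb measured 0.72 and 0.22 FPKM, from 23 and 7 fragments, 3.30-fold lower (1.37 to 9.10). Tshb, another such gene, had 18 fragments in wild type and was listed at 0 in the knockout. Neurod4 stood at 0.12 and 0.04 FPKM, from 8 and 3 fragments, and Tbx19 was near level at 0.47 and 0.48 FPKM. Gh, Prl, Lhb and Pou1f1 were listed at 0 in both libraries. The part of these cells in the low member values was not tested.

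Of 12 neuronal markers 11 passed, 3 with ratios below 0 and 8 above, and the summed level was 104 and 91.3 FPKM. Nefm and Nefl, neurofilament genes, measured 16.8 and 9.19 and 49.99 and 34 FPKM. Rbfox3, a splicing factor of neurons, measured 2.40 and 1.38 FPKM. Tubb3, a neuronal tubulin, went the other way, at 15.9 and 23.05 FPKM. By the plain ratio 3 genes were at least 1.5-fold higher. They were Elavl3 at 2.45 and 3.83 FPKM, Elavl4 at 1.20 and 1.81 FPKM, and Syt1 at 1.52 and 2.37 FPKM. The median log2 ratio of the neuronal list was 0.26. Sensory ganglion markers summed to 13.02 and 10.45 FPKM over 10 genes, 4 of which passed, 2 with ratios below 0 and 2 above. Among them Isl2, a motor and sensory neuron factor, measured 4.35 and 2.40 FPKM and Six4 4.81 and 4.06 FPKM, while Scn9a, a sodium channel gene, measured 1.25 and 2 FPKM and Runx1 1.51 and 1.54 FPKM. Their part in the member values was not tested.

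Cells of the retina and of the sympathoadrenal lineage left little trace. Of 11 photoreceptor markers, looked at because of Gnb3, only Gngt2 passed, at 0.69 and 1.24 FPKM, and the list summed to 2.09 and 2.44 FPKM. The defining genes Crx, Arr3 and Pde6h were listed at 0 in both libraries. Sympathoadrenal markers summed to 3.82 and 4.58 FPKM, with Dbh and Hand2 among the genes at 0 in both. In this list Gata3 measured 0.80 and 2.29 FPKM and Ddc 1.71 and 1.63 FPKM. Phox2a, which did not pass the filter, stood at 0.76 and 0.24 FPKM, from 31 and 10 fragments. Hypothalamic and infundibular markers, 8 of 11 above the filter, all lay within 1.5-fold with 0.5 FPKM added and summed to 113 and 106 FPKM, with Fgf10 at 28.5 and 25.5 FPKM and Nkx2-1 at 25.9 and 25.3 FPKM. By the plain ratio Fezf1, at 4.2 and 2.74 FPKM, was past 1.5-fold lower. Sim1, which did not pass the filter, stood at 0.52 and 0.03 FPKM.

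The genes most like each member were sought as the 3 protein-coding genes, of 21868, closest in log2(FPKM + 0.5) in both libraries. With 2 libraries this likeness says only that both levels were similar. For Ptprn they were Nell1 (5.42 and 1.05 FPKM), the collagen gene Col14a1 (5.46 and 0.95 FPKM) and Baiap3. For Resp18 they were Gdf10 (4.68 and 0.95 FPKM), Col14a1 and Nell1. Scgn and Gnb3 were each other's nearest gene, followed by Fmod (3.61 and 0.65 FPKM) and Resp18 for Scgn. For Gnb3 and for Asic4 the forkhead gene Foxl1 (8.28 and 0.75 FPKM) and Sox14 (7.59 and 0.82 FPKM) were among the nearest, and the third of Asic4 was Vegfd (9.63 and 1.32 FPKM). Ptprn2 had Kcnj4 (1.16 and 0.79 FPKM), Sorcs3 (1.21 and 0.79 FPKM) and Adcy2 (1.15 and 0.83 FPKM). The neighbours of the first 5 thus included matrix, growth factor and transcription factor genes as well as neuroendocrine ones.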

How the data were processed

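Each library has a table of Ensembl identifiers, exon lengths and FPKM, which the authors deposited rounded to 2 decimals. The submitters' processing notes name the build GRCm38 and the tools Cutadapt 1.9.1 and HISAT2 2.0.1, and the libraries were stranded and polyA-selected, per the labels' protocols. No source used here gives the counting tool or its use of strand.

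Values were used as deposited. Symbols and coordinates came from GENCODE M21, which matched 55141 of 55401 identifiers. Fragment totals were recovered as those that make FPKM times exon length whole: 1512 of 1512 and 1372 of 1372 values of up to 100 fragments, with rounding error below 0.05 fragment, were whole within 0.1. Member counts carry a rounding error of up to 0.862 fragment. Exact 95% Poisson and Clopper-Pearson intervals used these counts (scipy 1.17.1). The floor of a count of 0 was 3 fragments, 0.150 and 0.149 FPKM on 1 kb. Genes that reached 1 FPKM in either library were compared by log2 ratio with 0.5 FPKM added, which understates changes of low genes, and fold values are plain ratios.

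Members and lists were chosen with earlier results of these data known. Named were the members, per list the 4 widest ratios past 1.5-fold and the 3 highest levels (3 and 2 for marker lists), the 4 widest of the 100 kb neighbours, and the 3 nearest genes; other names were picked after their values were seen, and a few genes that the rule covers are not reported here. In simulated counts for all 55401 genes, a knockout-like against a wild-type-like library, 91% of genes made 2.5-fold lower and 100% of those made 5-fold lower came out at least 2-fold lower, as did 53 of 13757 unchanged genes. The simulation held counting error only, with no variation between embryos, dissections or sexes. The 53 genes therefore give no rate of false calls for the real libraries. Other pseudocounts, filters and scalings were tried.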

Additional observations from a re-analysis of the deposited data

How the results depend on the processing

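No paired analysis was possible because each genotype had 1 library. All 6 members stayed below 0 under each pseudocount and scaling tried, and the scalings multiplied the knockout library by 0.998 to 1.02. With a pseudocount of 2 FPKM the log2 ratios were -1.35 for Ptprn, -1.53 for Scgn, -1.84 for Gnb3 and -1.80 for Asic4, and with 0.1 FPKM that of Gnb3 was -3.79. A filter of 5 FPKM left 4 members at least 2-fold lower, since Resp18, at 4.98 FPKM, did not pass it. The count of 265 genes at least 2-fold lower became 83 with a pseudocount of 2 FPKM, 69 with a filter of 5 FPKM, 410 with no filter and 166 among genes with at least 200 bases of exon, a restriction chosen after the data were seen. The granin median was -0.70 with a pseudocount of 2 FPKM and -0.76 with a filter of 5 FPKM, which left Asic4 alone in the sodium channel list, at -2.62. The EF-hand median turned from -0.02 to 0.01 under the trimmed mean of log ratios. Fragment numbers of 15 to 20 in the knockout library limit the ratios of Scgn, Resp18 and Gnb3.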

Other observations

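A last list was of peptide and enteroendocrine genes. Of 7 listed, 4 passed 1 FPKM, 2 lower by 1.5-fold or more and 1 higher by as much. Cck, the cholecystokinin precursor, measured 2.56 and 0.19 FPKM, 13.4-fold lower (5.48 to 42.8), and Calca, the precursor of calcitonin and its related peptide, 4.35 and 2.21 FPKM, 1.97-fold lower (1.48 to 2.63). Sst, the somatostatin precursor, measured 0.69 and 1.38 FPKM, with an interval from 0.890 to 4.77 for the ratio of knockout over wild type. Gcg and Gast were listed at 0 in both libraries.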
